A study of Mus musculus with 18 samples.

Results

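The genes of the presynaptic vesicle and release machinery were followed through sleep loss in mouse cortex and through chemical stimulation of cultured cortical cells. The set was defined by name. It holds every gene whose probe set carries a single platform symbol from the families of synaptotagmins, synaptotagmin-like proteins, synapsins, syntaxins, SNAP proteins, VAMPs, syntaxin-binding proteins, complexins, RIMs, SV2 proteins, synaptogyrins, Unc13 and Doc2 proteins and Rab3 GTPases, together with Syp, Bsn, Pclo, Rph3a, Nsf and the Nap genes. Of 14807 genes with a single symbol, 80 met this definition. Each was represented by 1 probe set, the one with the highest mean over the 18 arrays where a gene had several. The definition itself goes by gene name and uses no measured value. Family members without a singly named probe set were not analysed here.

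A synaptic vesicle is docked at the active zone, a protein scaffold built around RIM, Bassoon (Bsn) and Piccolo (Pclo). Unc13 and syntaxin-binding proteins prime it by helping VAMP on the vesicle and syntaxin and SNAP-25 on the plasma membrane to zip into a SNARE complex, complexins hold that complex ready, and a synaptotagmin triggers fusion when it binds calcium. Nsf and the Nap proteins then take the used complexes apart. Many relatives of these proteins serve other membranes of the cell, such as endosomes, the Golgi apparatus and secretory granules. By role, 7 of the 80 genes were placed with SNAREs of the synapse or their recycling factors and 11 with SNARE assembly and priming. Vesicular calcium sensors received 8, other synaptotagmins 8, the vesicle membrane and its coat 11 and the active zone scaffold 6. The other 29 were placed with trafficking outside the synaptic vesicle. That last group includes Snap91, a clathrin adaptor that shares only an acronym with SNAP-25. The groups are approximate, and some genes, such as Snap91, Stxbp2 and several calcium sensors, could be placed otherwise.

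The cortex arrays came from male C57BL/6J mice in 3 groups of 9. Mice were sleep deprived for 6 h, or allowed to recover after the same 6 h of deprivation, or left undisturbed in the home cage as controls. The recovery time is 18 h in the source labels and 24 h in the treatment protocol. RNA of 3 mice was pooled for each array, so a group has 3 pools. The cultures were primary cortical cells of C57BL/6J newborns or embryos of day 16 to 18. Dishes were sampled 3 h after a cocktail of excitatory neurotransmitters, 24 h after that cocktail, or 3 h after a sham stimulation with water. No sham dish was sampled at 24 h. In every comparison with the 24 h dishes, a late effect of stimulation and the longer time after treatment cannot be told apart. The 9 dishes, 3 per group, came from 3 cultures. The labels do not say whether a given culture was started at birth or from embryos. Dish titles carry only a replicate number, which the labels do not tie to a culture. The pairing of same-numbered dishes used below was inferred from their values. Cortex and culture RNA was isolated with different kits, and 100 ng was labelled for every array. The p-values therefore cover the spread between pools or between dishes.

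Values are log2 signals after RMA (robust multi-array average), made by the authors. Marker genes checked the labels. Over 11 neuronal markers, the mean log2 signal of an array lay between 11.33 and 11.63 in cultures and between 11.23 and 11.29 in cortex. The direction for these 11 depended on scaling: 5 were higher and 4 lower in sham culture than in control cortex as deposited, 1 higher and 8 lower after quantile normalization, and 0 higher and 10 lower after scaling to a common median and SD. The mean of 9 oligodendrocyte markers lay between 5.45 and 5.84 in cultures and between 9.46 and 9.70 in cortex. Microglial markers lay between 5.29 and 5.69 in cultures against 7.71 and 7.89 in cortex, and endothelial markers between 4.54 and 4.68 against 7.65 and 7.88. All 7 immature-neuron markers and all 6 markers of dividing cells that were measured were higher in sham cultures than in control cortex as deposited, and 6 of each under both other scalings. The treatments could be seen in the activity gene Arc, which rose by 1.56 ± 0.05 (log2, SE) in sleep-deprived cortex and by 1.41 ± 0.25 in stimulated culture. The immediate early gene Fos rose by 3.70 ± 0.54 in stimulated culture. Among the 80 genes, 75 had a mean above the 30th percentile of all genes. The 5 below it were Cplx4, Stx19, Sytl1, Sytl4 and Unc13d.

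The promoters below belong to the members with the smallest p-values in culture for which the RefSeq promoter table had an entry, namely Stxbp4 and Stx4a 3 h after stimulation and Stxbp6 and Syt10 between 3 h and 24 h. None of these members passed in the planned model described below. In these comparisons Stxbp4 and Stxbp6 were lower and Stx4a and Syt10 higher. Syt4, which had the smallest p at 3 h, had no entry. The promoters are shown because neuronal activity acts on many genes through the cyclic AMP response element, whose core is TGACG. Each run holds the 250 bases before and 50 bases after a start site in that table (build GRCm38.p6), written 5′ to 3′ on the strand of the gene. This site need not be the outermost start of the gene. In the RefSeq gene table the Stx4a gene begins at 127840643 and the Stxbp6 gene, on the minus strand, at 45075118, both outside the windows shown. Capitals mark TGACG or its reverse complement. The regions are chr11:90638059-90638358 on the minus strand for Stxbp4, chr7:127841558-127841857 on the plus strand for Stx4a, chr12:45074434-45074733 on the minus strand for Stxbp6 and chr15:89841811-89842110 on the minus strand for Syt10.
Stxbp4: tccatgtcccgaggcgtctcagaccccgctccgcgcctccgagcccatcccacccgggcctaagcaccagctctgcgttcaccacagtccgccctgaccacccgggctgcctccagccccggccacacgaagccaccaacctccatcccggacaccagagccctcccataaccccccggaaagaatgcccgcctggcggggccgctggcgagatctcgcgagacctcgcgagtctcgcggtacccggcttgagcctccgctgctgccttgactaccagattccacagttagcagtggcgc
Stx4a: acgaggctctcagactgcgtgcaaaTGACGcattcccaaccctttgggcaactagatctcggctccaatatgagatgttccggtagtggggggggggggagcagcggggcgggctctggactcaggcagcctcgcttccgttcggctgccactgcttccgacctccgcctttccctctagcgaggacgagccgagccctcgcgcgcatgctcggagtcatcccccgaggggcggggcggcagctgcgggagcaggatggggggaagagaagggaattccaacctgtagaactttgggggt
Stxbp6: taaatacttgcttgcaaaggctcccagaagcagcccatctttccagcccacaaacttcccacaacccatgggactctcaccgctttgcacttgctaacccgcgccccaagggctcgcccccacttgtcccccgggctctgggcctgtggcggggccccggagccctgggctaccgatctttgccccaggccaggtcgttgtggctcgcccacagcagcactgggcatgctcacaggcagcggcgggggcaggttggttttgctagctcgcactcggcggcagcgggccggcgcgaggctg
Syt10: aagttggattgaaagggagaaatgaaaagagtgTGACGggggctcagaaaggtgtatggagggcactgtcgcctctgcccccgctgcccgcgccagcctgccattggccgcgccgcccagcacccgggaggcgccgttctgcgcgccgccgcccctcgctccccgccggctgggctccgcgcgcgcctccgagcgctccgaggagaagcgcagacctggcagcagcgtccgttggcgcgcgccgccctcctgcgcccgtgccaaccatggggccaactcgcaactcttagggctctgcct
The search of both strands found 1 match in the Stx4a window, 1 in the Syt10 window and 0 in the windows of Stxbp4 and Stxbp6. The table held 77 promoters of 59 members. Of these promoters 22.1% contained TGACG on either strand, against 20.8% of all 32851 promoters. The full palindrome TGACGTCA, which contains the shorter motif, was present in 2.60% and 1.79%, and the AP-1 motif TGANTCA in 5.19% and 7.81%. A match is a description of letters and not of binding.

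In sleep-deprived against control cortex a single member passed the test, Sytl2, whose product (synaptotagmin-like protein 2) binds Rab27 and docks secretory vesicles at the plasma membrane. It fell by 0.57 on the log2 scale, a 1.48-fold decrease. Changes were called with limma at an adjusted p under 0.05 over all genes. By that measure 1 of 80 members (1.25%) and 1.63% of all genes changed (0.723% higher and 0.905% lower), so the share among members was near the background.

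The log2 signal of Sytl2 was 8.59, 8.63 and 8.60 in the sleep-deprived pools, 9.20, 9.22 and 9.23 in the recovered pools and 9.13, 9.20 and 9.20 in the control pools. All 3 sleep-deprived pools lay below every other cortex pool, and recovered and control pools lay close together. Sleep-deprived and control pools did not overlap for 17.5% of members and 18.8% of all genes. For Sytl2, sleep deprived minus control was -0.57 ± 0.03 (SE, limma adjusted p = 2.2e-04). Recovered minus sleep deprived was 0.61 ± 0.03 (adjusted p = 3.2e-04), and recovered minus control was 0.04 ± 0.03, which did not pass. Both calls were lost when cortex and culture arrays shared 1 model (adjusted p = 0.277 and 0.166), in which the larger spread of the gene between dishes enters its error. In bulk tissue, fewer cells of a type and less RNA per cell cannot be told apart. Single genes from the marker lists of several cell types moved with Sytl2 in the same pools, while most markers of these lists did not pass. Among 9 measured oligodendrocyte markers, Opalin (-0.84) and Aspa (-0.33) fell in sleep-deprived cortex, both rose in recovered against sleep-deprived cortex, and 7 did not pass. The mean of these 9 markers was 9.46 to 9.51 in sleep-deprived pools, 9.56 to 9.70 in recovered pools and 9.58 to 9.62 in control pools. The microglial gene Trem2 fell, as 1 of 9 microglial markers, and the young-neuron gene Dcx, as 1 of 7. Differences from control ran from -0.84 to 0.23 for oligodendrocyte markers, with a median of -0.07. They ran from -0.32 to 0.14 (median -0.02) for microglial and from -0.62 to 0.19 (median -0.06) for immature-neuron markers. Of 7 endothelial and 8 pericyte and fibroblast markers none passed. The endothelial mean was nevertheless 7.65 to 7.74 in sleep-deprived pools, 7.77 to 7.88 in recovered pools and 7.75 to 7.86 in control pools, and the pericyte and fibroblast mean 7.47 to 7.51, 7.54 to 7.64 and 7.53 to 7.67 in the same order, so the sleep-deprived pools were lowest for both. Their part in the result was not tested.

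**Figure D1:**
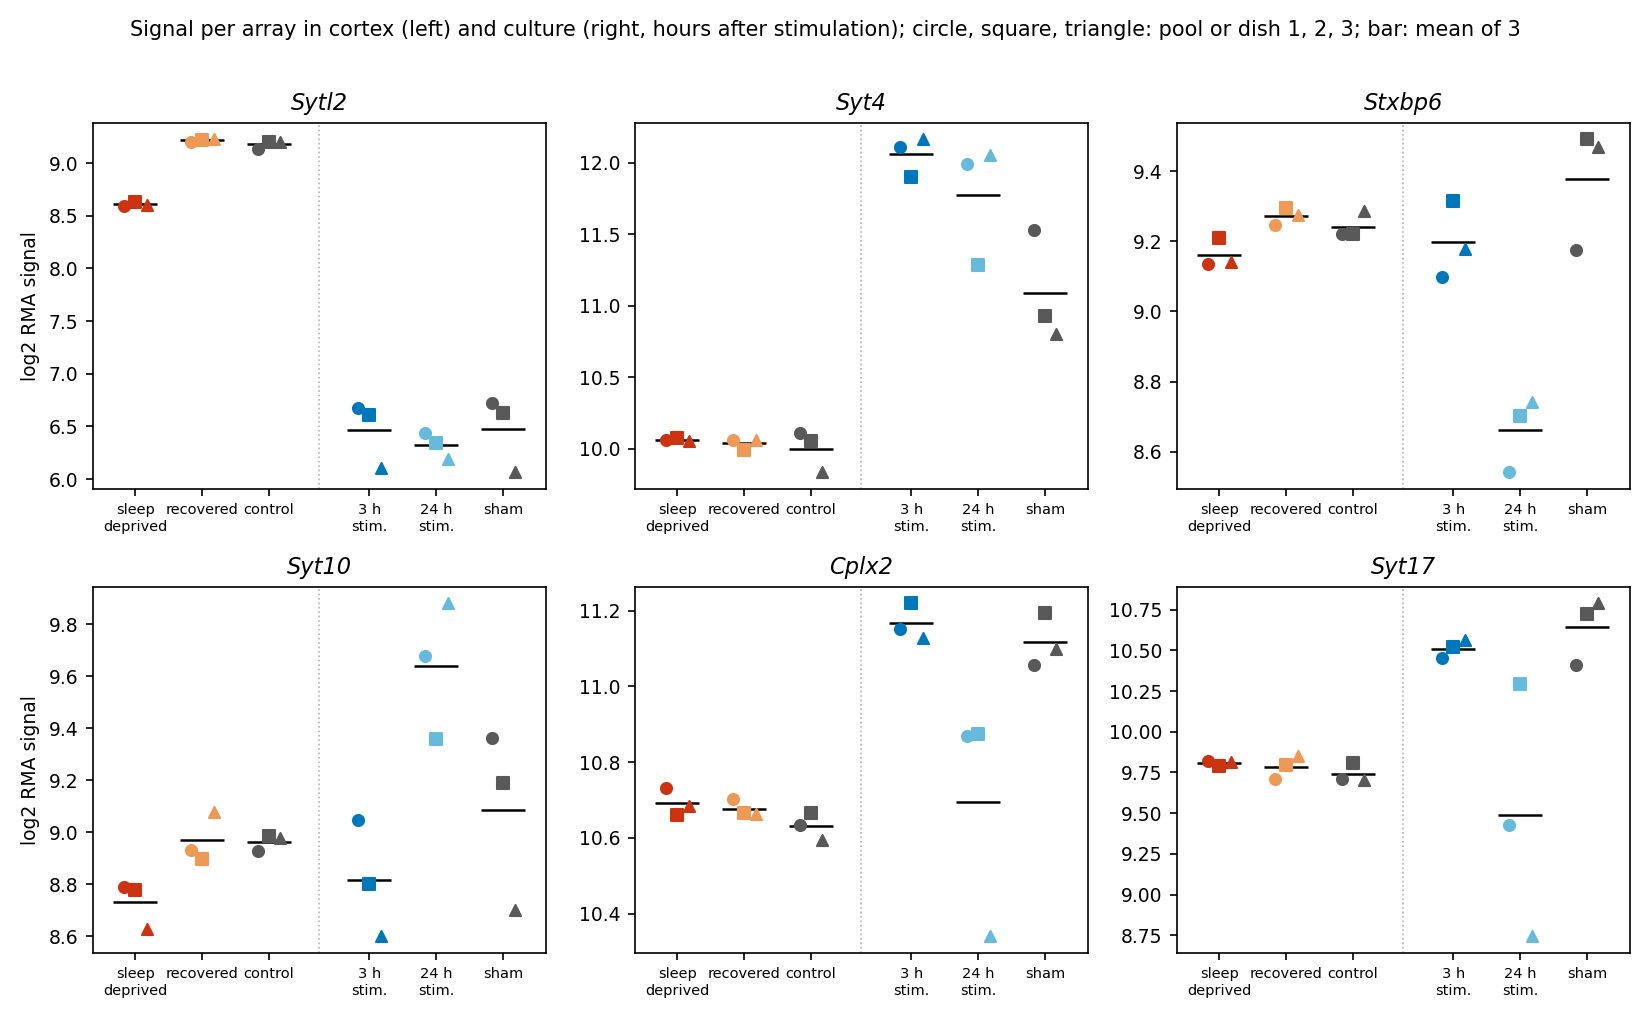
Log2 RMA signal (vertical axes, each panel with its own scale) of 6 members on each array, with cortex groups left and culture groups right of the dotted line; symbols mark the pool or dish number and bars the mean of 3. Sytl2 is low in the 3 sleep-deprived pools, Syt4 is high in the 3 dishes sampled 3 h after stimulation, and the triangle at 24 h (dish 3) stands apart for Cplx2 and Syt17.

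Snap25, Vamp2 and Stx1a encode the 3 SNAREs of fast synaptic release, and Nsf and the Nap genes their recycling factors. The 7 differences of this group lay between -0.07 and 0.01, and none passed. The plasma membrane SNARE gene Snap25 had 13.37, 13.33 and 13.36 in sleep-deprived pools, 13.37, 13.34 and 13.36 in recovered pools and 13.33, 13.35 and 13.41 in control pools. These ranges overlap fully. Among 16 core genes of release, fixed as a list for all comparisons, differences in sleep-deprived cortex ran from -0.07 for Stx1a to 0.12 for the scaffold gene Bsn, and all 16 intervals (95%, limma) stayed within 1.5-fold either way. Both ends moved with single control pools: without control pool 3 the difference was 0.04 for Bsn and -0.16 for Stx1a, and without control pool 1 it was -0.02 for Stx1a, or -0.03 without control pool 2. Over all 80 members, 79 intervals did so, against 93.5% of all genes. Sytl2 was the exception.

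**Figure D2:**
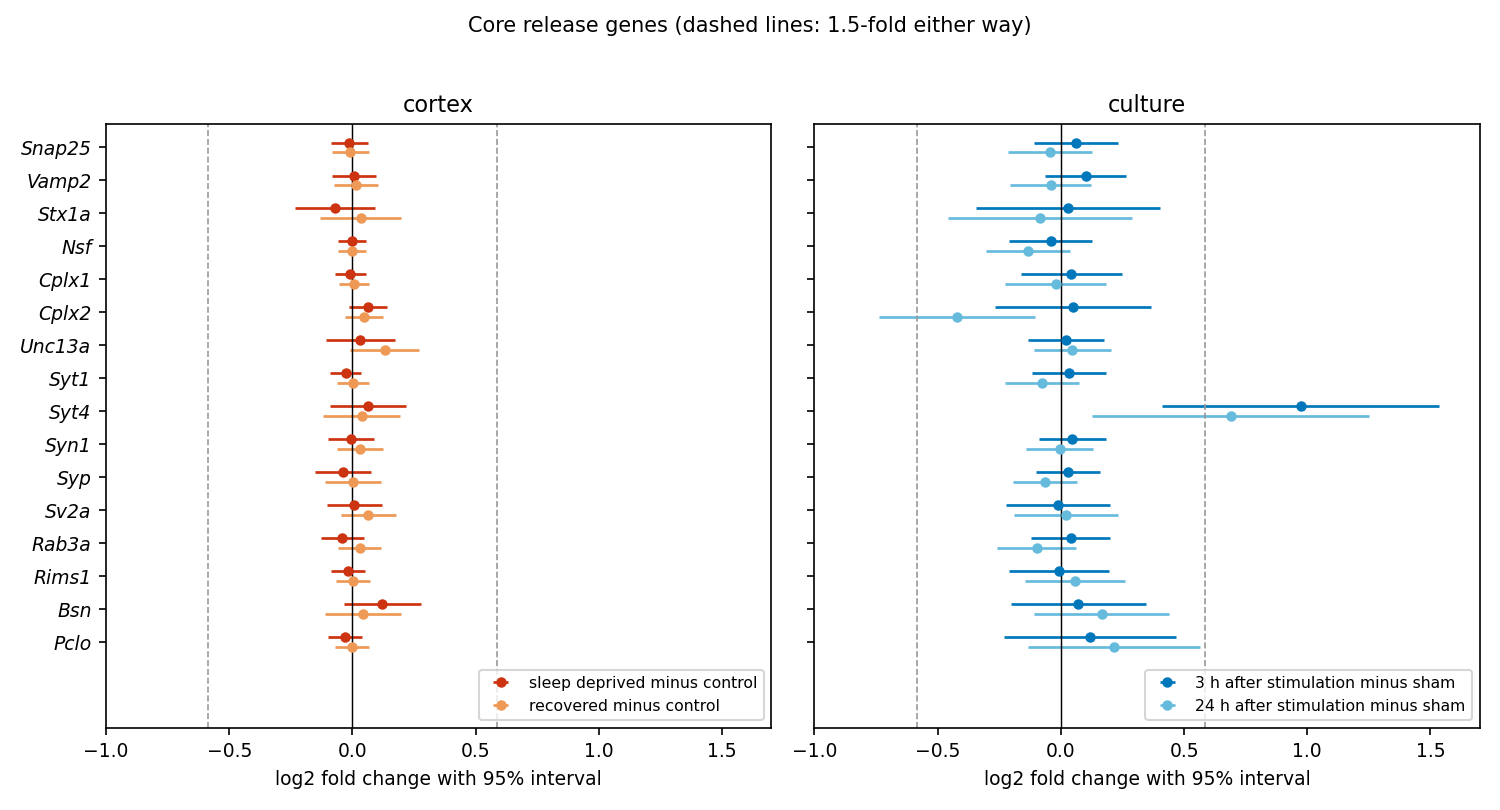
Log2 fold change (horizontal axis) with its 95% interval for 16 core release genes, in cortex (left; sleep deprived or recovered minus control) and in culture (right; 3 h or 24 h after stimulation minus sham). In cortex every interval stays between the dashed 1.5-fold lines, and in culture only those of Syt4, and of Cplx2 at 24 h, cross them.

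The calcium sensors with the smallest p-values in sleep-deprived cortex were Syt9 and Syt10, both below the test. Syt9 encodes a fast calcium sensor of a subset of neurons. Its signal was 7.30, 7.26 and 7.21 in sleep-deprived pools, 7.49, 7.42 and 7.62 in recovered pools and 7.43, 7.46 and 7.49 in control pools. The sleep-deprived pools did not overlap the others, but 18.8% of all genes had no overlap between sleep-deprived and control pools. For Syt9, sleep deprived minus control was -0.20 ± 0.05 (limma adjusted p = 0.134). Syt10 encodes a calcium sensor known from secretion of insulin-like growth factor 1 by olfactory bulb neurons. It had 8.79, 8.78 and 8.63 in sleep-deprived pools, 8.93, 8.90 and 9.08 in recovered pools and 8.93, 8.98 and 8.98 in control pools, a difference from control of -0.23 ± 0.06 (adjusted p = 0.134). In the opposite direction stood Syt12, which encodes a synaptotagmin without calcium binding, at 0.19 ± 0.05 (adjusted p = 0.156). Syt1, the main calcium sensor of fast release, differed by -0.03. The 11 vesicle membrane and coat genes lay between -0.08 and 0.08 and the 6 active zone genes between -0.04 and 0.13, with none passing.

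Set against the sleep-deprived pools, the recovered pools again gave a single call among the members. Sytl2 rose, 1 of 80 members, while 2.26% of all genes changed (1.47% higher and 0.79% lower). Because both comparisons use the sleep-deprived pools, a deviation of those pools enters both with opposite sign. The next members were Stxbp2 (0.24 ± 0.05, adjusted p = 0.055), which encodes the Munc18 protein of immune and epithelial cells, Syt9 (0.26 ± 0.05, adjusted p = 0.058) and Syt10 (0.24 ± 0.06, adjusted p = 0.099). Stxbp2 had 9.52, 9.56 and 9.69 in recovered pools, 9.29, 9.41 and 9.34 in sleep-deprived pools and 9.51, 9.52 and 9.51 in control pools. The recovered and sleep-deprived pools did not overlap, which held for 27.5% of members and 22.3% of all genes. Stxbp2 and Syt9 passed when arrays were quantile normalized (adjusted p = 0.030 and 0.034) and when the 30% of genes with the lowest mean were left out (adjusted p = 0.028 and 0.029), and Syt9 also without recovered pool 2. The median member difference was 0.03, against 0.01 for all genes.

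No member and no gene of the whole table passed between recovered and control cortex (0% called), and 1 gene, no member, when the dimmest 30% of genes were left out. Without adjustment, limma gave 0 members and 427 of all genes a p under 0.05. The members with the smallest p were the priming gene Unc13a (0.13 ± 0.06), the Golgi and endosomal syntaxin gene Stx6 (0.10), Snap47 (0.10) and Stxbp2 (0.08). Without recovered pool 3 the value was 0.05 for Stx6 and 0.03 for Stxbp2, and without control pool 3 it was 0.05 for Snap47. All 80 intervals stayed within 1.5-fold. Above 0 were 61 of 80 members and 8522 of all 14807 genes, with a median of 0.03 for members against 0.01 over all genes. The member median was 0.01 without control pool 3 and 0.01 without recovered pool 3, so its size rests on these pools. Unc13a had 11.03, 11.08 and 11.08 in recovered pools and 10.97, 10.97 and 10.85 in control pools.

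**Figure D3:**
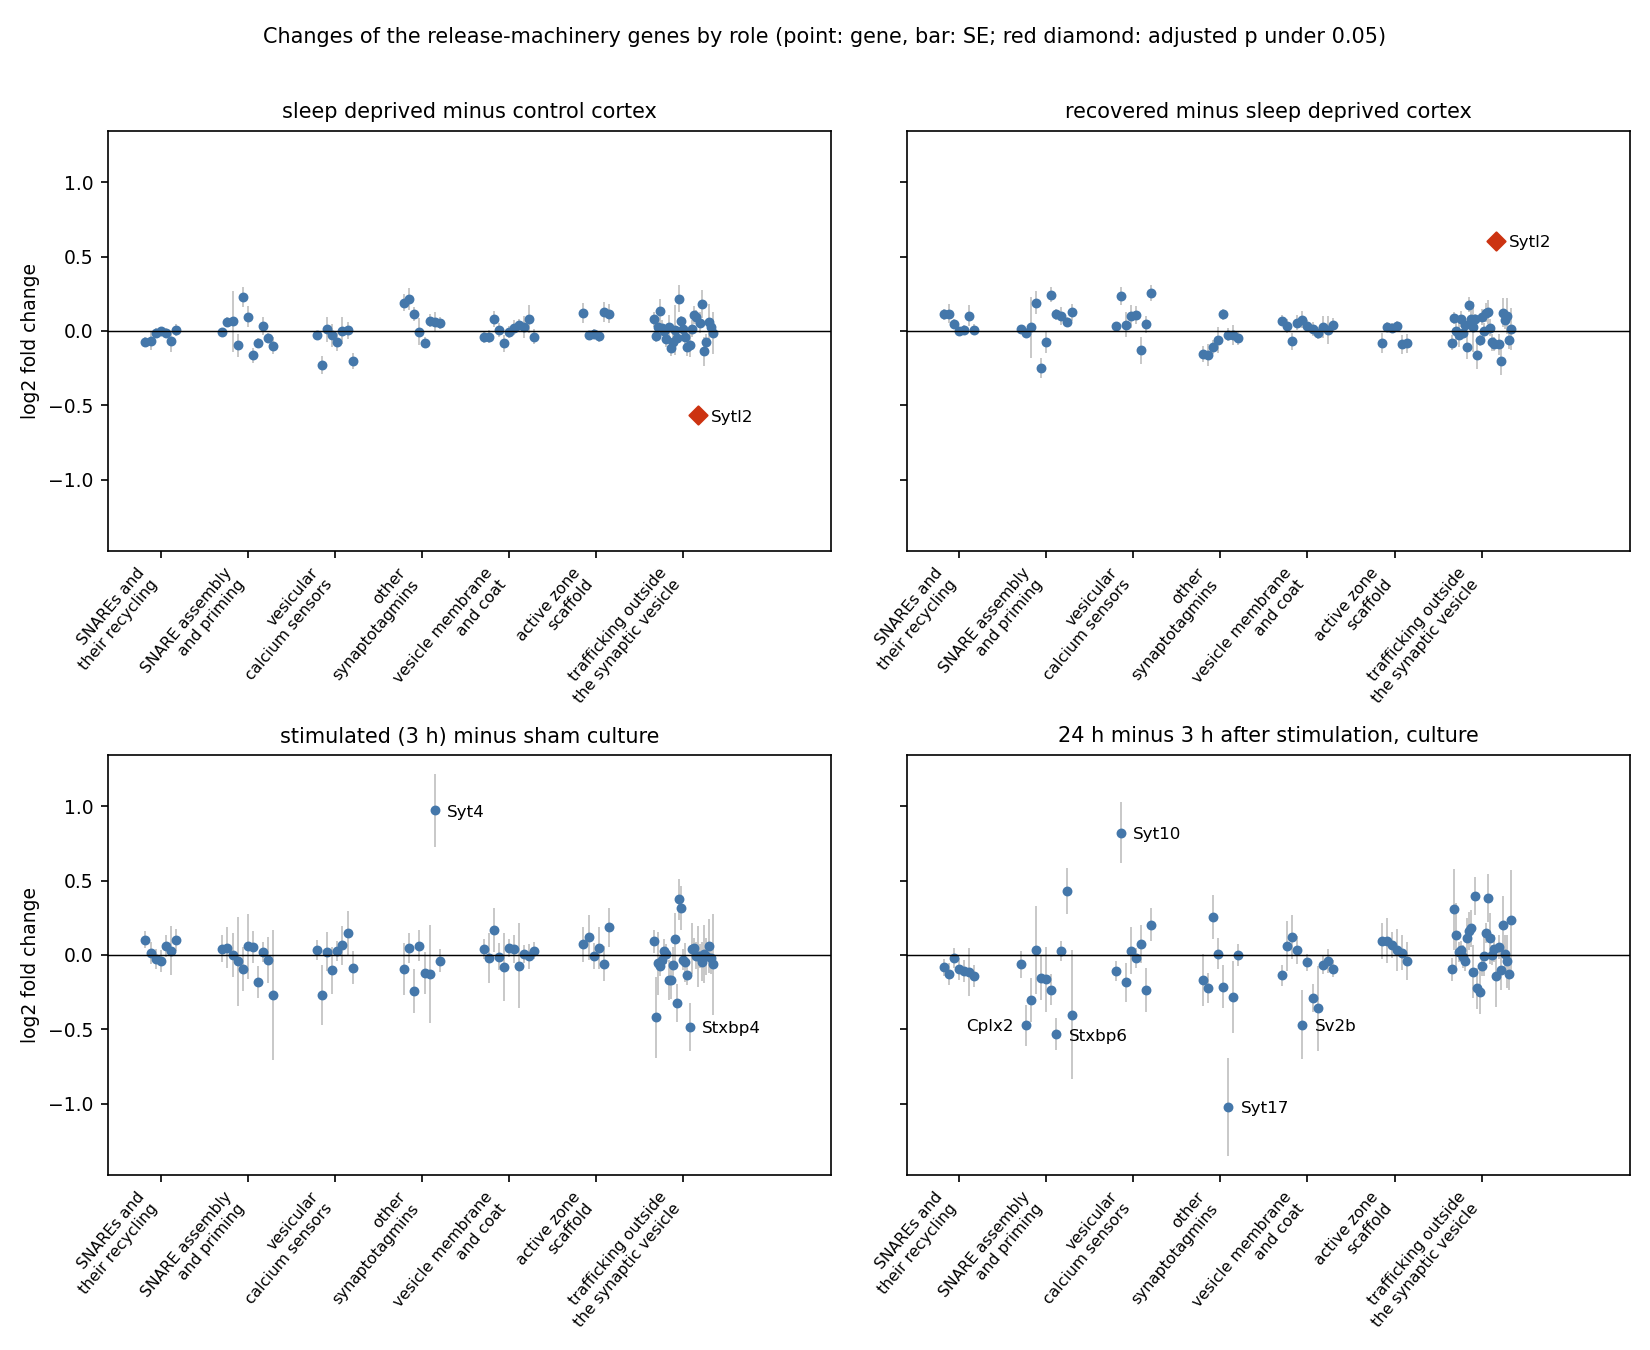
Log2 fold changes (vertical axis) of the 80 members with SE bars in 4 comparisons, grouped by role along the horizontal axis; red diamonds mark an adjusted p under 0.05. In cortex the points lie near 0 apart from Sytl2, and in culture the spread is wider, with Syt4 highest 3 h after stimulation and Syt17 lowest at 24 h.

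At 3 h after stimulation no member passed the test in culture, where 1.45% of all genes changed (0.898% higher and 0.554% lower). With the dish number as a block, 358 genes in place of 215 changed, and still 0 members. An unadjusted p under 0.05 was found for 4 members (5.00%), against 12.7% of all genes. The largest difference belonged to Syt4, an activity-induced synaptotagmin of dense-core vesicles. Its signal was 12.11, 11.90 and 12.16 in dishes 3 h after stimulation, 11.99, 11.28 and 12.05 at 24 h, and 11.53, 10.93 and 10.80 in sham dishes. Every stimulated dish lay above every sham dish, and sham dish 1 lay well above the other two. Stimulated and sham dishes did not overlap for 11.25% of members and 21.4% of all genes. For Syt4, stimulated minus sham was 0.97 ± 0.24, a 1.96-fold difference (limma adjusted p = 0.107, and 0.056 with the block). Between dishes of the same number it was 0.58, 0.97 and 1.36, higher in 3 of 3. It passed in the model of all 18 arrays (adjusted p = 0.0045).

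The other 3 members with an unadjusted p under 0.05 at 3 h were Stxbp4, Stx4a and Stx2, all placed with trafficking outside the synaptic vesicle. Stxbp4, whose product (synip) binds syntaxin 4, had 9.83, 9.83 and 10.12 in stimulated dishes, 10.05, 10.46 and 10.43 at 24 h and 10.14, 10.46 and 10.64 in sham dishes. All stimulated dishes lay below all sham dishes, by 0.49 ± 0.16 in the mean (log2 -0.49, limma adjusted p = 0.232, and 0.055 with the block). A second, dimmer probe set of Stxbp4 had 7.63, 7.84 and 7.73 in stimulated and 7.96, 7.91 and 8.13 in sham dishes. That smaller difference was not tested. Stx4a, which encodes syntaxin 4, had 7.78, 7.78 and 8.11 in stimulated dishes, 7.66, 7.46 and 7.88 at 24 h and 7.39, 7.52 and 7.65 in sham dishes. The stimulated dishes lay above the sham dishes, with a difference of 0.37 ± 0.14 (adjusted p = 0.276, and 0.068 with the block). Stx2, another plasma membrane syntaxin gene, stood at -0.32 ± 0.13 (adjusted p = 0.328). None of these passed in the planned model.

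The 7 SNARE and recycling genes lay between -0.04 and 0.10, the 11 vesicle membrane and coat genes between -0.08 and 0.17, and the 6 active zone genes between -0.06 and 0.19. Leaving out Syt4, all 15 other core genes had intervals within 1.5-fold. The calcium sensor gene Syt1 had 13.06, 13.08 and 13.10 in stimulated dishes, 13.01, 12.90 and 13.00 at 24 h and 12.97, 13.05 and 13.12 in sham dishes, so that the 3 h dishes lay within the range of the sham dishes. Over the whole set, 66 of 80 intervals stayed within 1.5-fold, against 76.8% of all genes. The cultures limit precision more than the cortex pools do, since the median SD within groups was 0.166 for members in culture and 0.0698 in cortex.

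Between 3 h and 24 h after stimulation no member passed without the block, where 0.331% of all genes changed (0.081% higher and 0.25% lower). Stxbp6 came nearest. It encodes amisyn, which binds syntaxin and inhibits SNARE assembly. Its signal was 8.54, 8.70 and 8.74 at 24 h, 9.10, 9.31 and 9.18 at 3 h and 9.18, 9.49 and 9.47 in sham dishes. All 24 h dishes lay below all the others. Dishes at 24 h and 3 h did not overlap for 21.25% of members and 15.3% of all genes. Between 24 h and sham dishes the shares were 10% and 8.39%. For Stxbp6 the difference of 24 h minus 3 h was -0.53 ± 0.11 (limma adjusted p = 0.101). With the dish number as a block Stxbp6 fell (adjusted p = 0.035), 1 member beside 150 of all genes in place of 49. Against sham dishes, which were sampled at 3 h only, Stxbp6 was lower by 0.72 ± 0.11 (log2 -0.72). The unadjusted limma p was 1.4e-04 and the adjusted p 0.369 (0.156 with the block). No gene passed in that comparison (0% called), while 9 members (11.2%) and 5.92% of all genes had an unadjusted p under 0.05.

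The calcium sensor gene Syt10 was higher at 24 h than at 3 h, though it did not pass the test. It had 9.68, 9.36 and 9.88 at 24 h, 9.05, 8.80 and 8.60 at 3 h and 9.36, 9.19 and 8.70 in sham dishes. The 24 h dishes lay above all 3 h dishes and overlapped the sham dishes at 9.36. The difference of 24 h minus 3 h was 0.82 ± 0.20 (adjusted p = 0.160), and against sham 0.56 ± 0.20 (adjusted p = 0.808), or 0.36 without sham dish 3. The other members with small p-values between 3 h and 24 h were the complexin gene Cplx2 (-0.47 ± 0.14, adjusted p = 0.225) and Stx2 (0.40 ± 0.13, adjusted p = 0.266). Without 24 h dish 3 these were -0.29 for Cplx2 and 0.24 for Stx2.

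In 24 h dish 3 the mean of 7 astrocyte markers was 11.04, against 9.85 to 10.50 in the other culture dishes, and the mean of 6 excitatory-neuron markers was 10.43, against 10.93 to 11.39. In that dish Cplx2 was 10.34, against 10.87 and 10.88 in the other 24 h dishes, and the vesicle glycoprotein gene Sv2b was 11.55, against 12.49 and 12.51. Syt17, which encodes a synaptotagmin relative also known as B/K protein, had 9.43, 10.29 and 8.74 at 24 h, 10.45, 10.52 and 10.56 at 3 h and 10.41, 10.73 and 10.79 in sham dishes. Syt17 was lower at 24 h than in sham by 1.15 ± 0.33 (log2 -1.15, adjusted p = 0.774). Without dish 3 this became -0.78 for Syt17, -0.24 in place of -0.42 for Cplx2, and -0.23 in place of -0.55 for Sv2b. For Stxbp6 it became -0.76. The excitatory-neuron mean was also low in 24 h dishes 1 and 2, at 11.17 and 10.97. Same-numbered dishes had 11.39 and 11.32 at 3 h and 11.32 and 11.16 in sham. Leaving out dish 3 therefore does not remove that difference. The part of the cell mixture of the 24 h dishes in these values was not tested.

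Whether a gene responded differently to stimulation in culture than to sleep deprivation in cortex was tested as an interaction. No member passed, while 2.07% of all genes did (1.12% higher and 0.952% lower). The differences in response were 0.91 ± 0.27 for Syt4 (adjusted p = 0.106) and 0.56 ± 0.22 for Sytl2 (adjusted p = 0.275). With the replicate block both passed, Syt4 at an adjusted p of 0.048 and Sytl2 at 0.018, beside 514 of all 14807 genes. Syt4 also passed without sham dish 1 (adjusted p = 0.028). The difference for Sytl2 was 0.36 without sham dish 3. Sytl2 had 6.68, 6.61 and 6.10 in stimulated dishes, 6.44, 6.34 and 6.19 at 24 h and 6.73, 6.63 and 6.07 in sham dishes. Dish 3 was lowest in each group, and stimulated minus sham was -0.01 ± 0.20. Syt4 differed by 0.06 ± 0.07 in sleep-deprived against control cortex.

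Culture signals varied by dish number. Averaging the 3 dishes of a number, the lowest and highest number differed by a median of 0.214 over the members, against 0.0734 between same-numbered cortex pools, which the labels do not link. The difference exceeded 0.5 for 9 members in culture and for 0 in cortex. These 9, singled out after their values were seen, were Unc13c, Doc2a, Rab3d, Vamp8, Syn3, Snap23, Vamp3, Rph3a and Syt4. The share of all genes over 0.5 was not counted. Over all genes, too, the median SD within groups was larger in culture (0.147) than in cortex (0.0761). Syn3, a synapsin gene of early neuronal development, averaged 11.27, 10.97 and 10.56 over the dishes numbered 1, 2 and 3.

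In sham culture against control cortex 57 of 80 members (71.2%) changed, against 76.2% of all genes, and the direction depended on how the arrays were scaled. In the deposited values 46 of 80 members were higher in culture and 11 lower, which is 57.5% and 13.8% of them, against 61% and 15.3% of all genes. After quantile normalization of the 18 arrays, 16 were higher and 37 lower, and after scaling arrays to a common median and SD, 22 were higher and 35 lower. The split of called genes moved less over the whole table, with 80.0% of them higher in the deposited values, 70.2% after quantile normalization and 78.6% after scaling. The median of all genes was 0.50, 0.23 and 0.39 under the 3 scalings, and that of the members 0.46, -0.15 and -0.09. The SD across the probe sets of an array was 2.29 to 2.31 in cortex and 2.77 to 2.80 in culture, before any rescaling. Members were bright, with a median signal of 9.98 in culture against 7.93 over all genes, and 9.40 against 7.36 in cortex. The part of this wider spread and high signal in the changed directions was not tested. Under all 3 scalings 12 members were higher in culture, 10 were lower, and 58 were not settled. Set against the median gene of each scaling, without a test, 11 members lay above it under all 3, 39 below, and 30 differed. These counts were not made over all genes, so they have no background share beside them. Sham cultures and control cortex differed in age, cell types and RNA kit, which cannot be told apart here.

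The 12 members higher in culture under all scalings were Syt9 (2.50 in the deposited values), Doc2b (2.17), Rab3d (1.92), Syngr3 (1.90), Syn3 (1.74), Rab3b (1.63), Stx7 (1.51), Vamp3 (1.46), Stxbp4 (1.35), Stx17 (1.17), Snap29 (1.16) and Syngr4 (0.31). Relative to the median gene, Syngr4 stood at -0.18 as deposited, 0.22 after quantile normalization and -0.03 after scaling. Syt9 had 9.85, 10.05 and 9.98 in sham dishes and 7.43, 7.46 and 7.49 in control pools, with no overlap. Sham dishes and control pools did not overlap for 76.25% of members and 82.3% of all genes. Doc2b, a calcium sensor gene of spontaneous and asynchronous release, had 9.72, 9.18 and 9.47 in sham dishes and 7.29, 7.36 and 7.21 in control pools. Stx7 and Vamp3 encode endosomal SNAREs, and Rab3d a Rab3 form known from secretory granules outside neurons. After quantile normalization the differences were 1.87 for Syt9, 1.62 for Doc2b and 1.40 for Rab3d.

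The 10 members lower in culture under all scalings were Sytl2 (-2.70), Unc13c (-1.39), Syt2 (-1.25), Vamp5 (-0.78), Rims3 (-0.56), Pclo (-0.51), Unc13b (-0.46), Rims2 (-0.38), Syt12 (-0.34) and Rims1 (-0.25). Sytl2 had 6.73, 6.63 and 6.07 in sham dishes and 9.13, 9.20 and 9.20 in control pools, with no overlap. All 9 oligodendrocyte markers were lower in culture too, with a median of -4.30, and their part was not tested. Syt2, the fast calcium sensor of hindbrain synapses and of some cortical interneurons, had 6.54, 6.65 and 6.54 in sham dishes and 7.82, 7.82 and 7.82 in control pools. Among the 6 active zone genes, the RIM genes Rims1, Rims2 and Rims3 and the scaffold gene Pclo were lower under each scaling, and Rims4 (0.83) was not lower under any. Pclo had 10.23, 10.22 and 9.97 in sham dishes and 10.64, 10.65 and 10.64 in control pools. Syt12 missed the threshold without sham dish 1, without control pool 1 and without control pool 2. The size for Vamp5 depended on the probe set. A second, dimmer one had 2.43, 2.99 and 3.63 in sham dishes and 5.47, 5.09 and 5.52 in control pools.

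All 11 vesicle membrane and coat genes were higher in culture in the deposited values, with a median of 0.88, but 3 were higher and 4 lower after quantile normalization and 4 higher and 5 lower after scaling. Of 7 SNARE and recycling genes, 6 were higher and 0 lower as deposited, and 0 higher and 6 lower under each other scaling. Synapsin 1 (Syn1) was higher by 0.54 in the deposited values, at -0.16 after quantile normalization and at -0.52 after scaling. In all, 17 members were called in both directions under different scalings, a count that was not made over all genes.

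**Figure D4:**
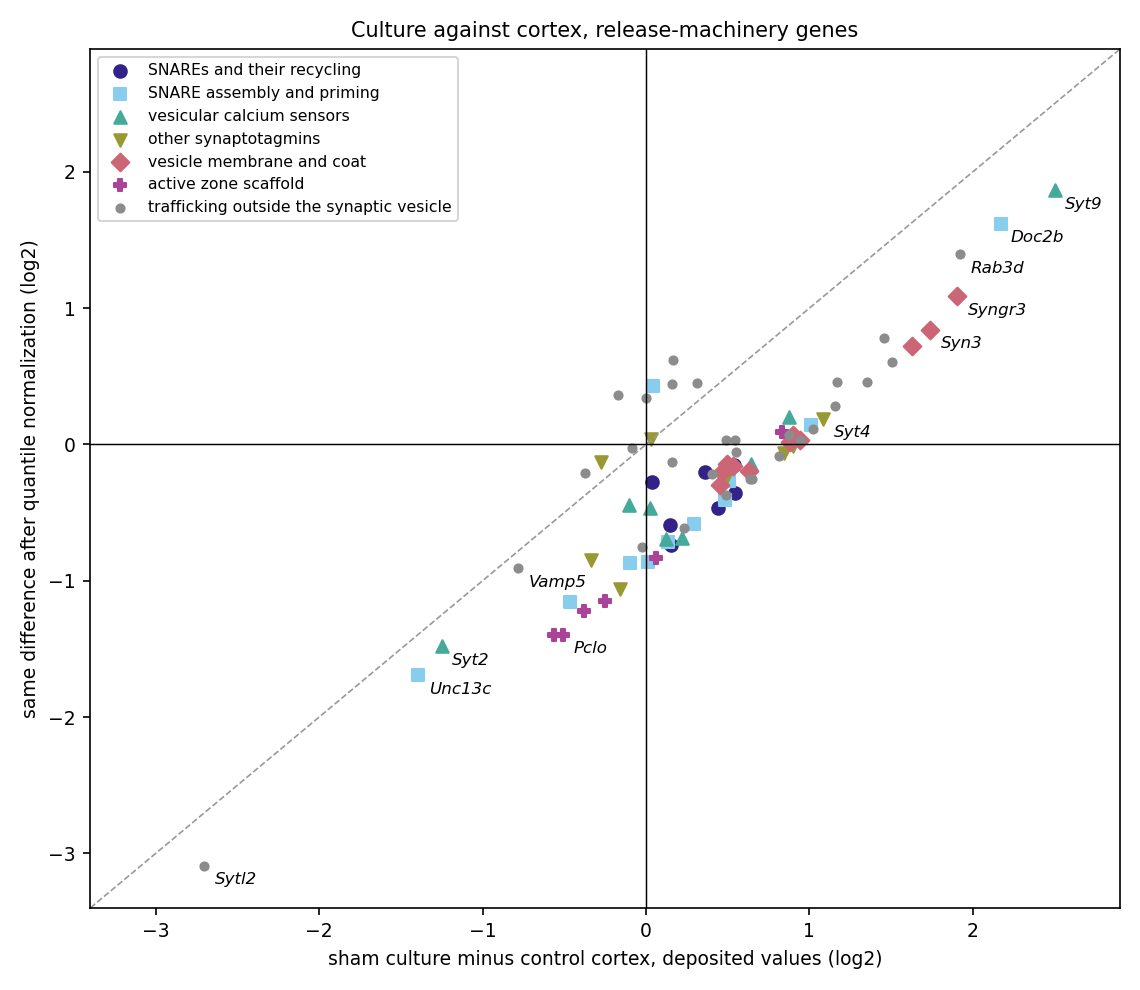
Sham culture minus control cortex (log2) for the 80 members in the deposited values (horizontal axis) and after quantile normalization (vertical axis), with symbols by role and a dashed line of equality. Most points lie below the line, and the vesicle membrane genes near 0.5 to 0.9 on the horizontal axis lie near 0 on the vertical axis, while Syt9, Doc2b and Rab3d stay high and Sytl2, Unc13c and Syt2 stay low.

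Other presynaptic genes, such as vesicular transporters, endocytosis factors and calcium channel subunits of the terminal, were set beside the members from a list of 41, of which 35 were measured. Of these, 0 passed in sleep-deprived against control cortex, and 1 in recovered against sleep-deprived cortex, Cadps2, a priming factor gene of dense-core vesicles (0.24 ± 0.05, adjusted p = 0.046). None of the 35 passed 3 h after stimulation. The smallest p there was that of Slc6a17, which encodes a vesicular amino acid transporter (0.38 ± 0.10, adjusted p = 0.109). None passed in the other comparisons within a system. In sham culture against control cortex, 27 were higher and 3 lower as deposited, and 13 were higher and 14 lower after quantile normalization.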

How the data were processed

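Gene expression was measured on 18 Affymetrix whole-transcript arrays, 3 in each of 6 groups. The deposited values are log2 signals that the authors made by RMA, per the submitters' processing notes. The sources used here do not give its version, its settings or whether all arrays were normalized together. Some deposited values are identical in several arrays. Rab3d, for example, had 7.29629 in all 3 control pools (SD 0) and in sleep-deprived pool 1. Such ties enter the SD within groups, and their source was not tested. Precision is limited by how many arrays there are. Of 23238 probe sets, 14939 carried 1 gene symbol, 7310 carried none and 989 carried more than 1. The single-symbol probe sets gave 14807 genes, each represented by its probe set with the highest mean. In the RefSeq gene table (GRCm38.p6), 14884 of these probe sets and all 80 members were found.

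Two-sided tests of the groups used lmFit and eBayes of the limma package (version 3.58.1, R version 4.3.3). The p-values were adjusted by Benjamini-Hochberg across all genes, with a threshold of 0.05. Cortex and culture arrays were fitted apart, 9 each, and together for culture against cortex and the response difference. The scripts were tested on simulated data. Same-numbered dishes deviated together, with correlations of 0.2024 to 0.5518 over 9 pairs of arrays (-0.3579 to 0.1185 over 18 pairs of different number), so the number was taken as a pairing in culture. In cortex the values were -0.1024 to 0.1012 for the same number. The members and lists were chosen with earlier results of these data known. Named were members that passed, at most 12 each way, the 4 smallest p-values in each comparison and a fixed set of core genes. Sv2b in the account of 24 h dish 3, the genes with large differences between dish numbers and those with 1 direction under all scalings were named after their values were seen. Alternatives were a replicate block, quantile normalization, scaling to 1 median and SD, a filter on low signals, all 18 or only the 6 compared arrays, and leaving out each array.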

Additional observations from a re-analysis of the deposited data

Results flagged for a closer look

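The response to stimulation in culture and the response to sleep deprivation in cortex differed by the test of the difference itself for 2 members when the replicate number was a block. In that fit 2 of 80 members and 514 of all 14807 genes passed. For Syt4 the response in culture (0.97 log2 units against sham) exceeded that in cortex (0.06 against control) by 0.91 (limma adjusted p = 0.048, higher in 3 of 3 same-numbered culture pairs). For Sytl2 the response was -0.01 in culture and -0.57 in cortex, a difference of 0.56 (adjusted p = 0.018). Without sham dish 3 the difference for Sytl2 was 0.36. Without the block neither passed (adjusted p = 0.106 and 0.275). In cortex the replicate number was not borne out as a pairing, so the block fits a term there that the pools do not share.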

How the results depend on the processing

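Leaving out 1 array at a time, the number of members that changed was 1 to 1 in sleep-deprived against control cortex, 1 to 2 in recovered against sleep-deprived cortex, 54 to 58 in sham culture against control cortex, and 0 to 1 for the response difference. It was 0 to 0 in each of the other 4 comparisons. With all 18 arrays in 1 model, 0 members changed in sleep-deprived against control cortex and 0 in recovered against sleep-deprived cortex, while 2 changed at 3 h against sham (Syt4 and Stxbp4), 7 at 24 h against 3 h, and 1 at 24 h against sham (Stxbp6). Of all 14807 genes, 31, 42, 1170, 872 and 64 changed in the same order. In that model cortex and culture share 1 estimate of the spread, by its construction. In recovered against sleep-deprived cortex 3 members changed after quantile normalization, beside 468 of all 14807 genes. Once the dimmest 30% of genes were left out, 3 members changed beside 608 of 10365 genes, and the cause was not tested. With the replicate block, 1 member changed at 24 h against 3 h (Stxbp6) and 2 in the response difference, and the block changed no other count of members by over 1.5 times. Over all genes the block gave 140 in place of 241 in sleep-deprived against control cortex, 190 in place of 334 in recovered against sleep-deprived cortex, 358 in place of 215 at 3 h against sham, 150 in place of 49 at 24 h against 3 h and 514 in place of 307 for the response difference. Over all alternatives these counts of all genes spanned 31 to 380, 42 to 608, 18 to 1170, 1 to 872 and 156 to 514 in the same order, so the background shares depend on the setting.

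In sham culture against control cortex, genes higher in the deposited values turned negative after quantile normalization and after scaling to 1 median and SD: Syn1 (-0.16 and -0.52), Syp (-0.20 and -0.62), Vamp2 (-0.20 and -0.81), Stx1a (-0.35 and -0.22), Cplx2 (-0.41 and -0.32), Sv2a (-0.19 and -0.33), Rab3a (-0.30 and -0.57) and Nsf (-0.59 and -0.89). The cause was not tested. For single named genes, leaving out an array kept direction and side of the threshold in 1148 cases, with 8 lost calls and 2 gained. The other alternatives kept both in 767 cases, with 10 lost calls, 22 gained and the 16 reversals above.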

Other observations

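Control cortex pool 3 was low for several members, which were singled out after their values were seen. Syngr3, a vesicle membrane gene, had 10.50, 10.60 and 10.52 in sleep-deprived pools and 10.61, 10.56 and 10.22 in control pools. Syt13, a synaptotagmin gene, had 10.47, 10.46 and 10.43 in sleep-deprived pools and 10.34, 10.34 and 10.04 in control pools. Rims3 had 9.73, 9.80 and 9.77 in sleep-deprived pools and 9.73, 9.71 and 9.48 in control pools. None of the 3 passed the test in cortex.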
